A study of Mus musculus with 4 samples.

Results

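Dpt, Mybph, Tff1, Gng4 and Adora1 are 5 genes chosen by their chromatin accessibility in regulatory T cells (Treg), out of 21883 protein-coding genes counted. They were selected on the measure described here, a higher level in tumor than in cecum in both Treg labels, so their Treg values are a description and carry no test. The data are ATAC fragments of T cells sorted from AKP tumors and from the adjacent tumor-free cecum of mice 4 weeks after implantation. AKP organoids are engineered colon epithelium whose changes include loss of Apc and Trp53, and they were injected into the cecal wall, so both tissues came from tumor-bearing animals. The strain and number of animals behind the libraries are not given in the sources used here.

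The study compared tumor with cecum across 17 cell labels, which the authors set from RNA of the same nuclei, with 1 ATAC library per tissue. The annotation holds 7155 labelled cells of the cecum and 8466 of the tumor, with a median of 4374 and 5846 fragments per cell, and 84 barcodes carried a label in both libraries. The IL-10+ Treg label held 996 cecum and 387 tumor cells, and the IL-10- Treg label held 424 and 737. Foxp3, which encodes the defining transcription factor of Treg, stood at 102 and 79.2 fragments per 1000000 fragments of the label (FPM) in IL-10+ Treg of cecum and tumor and at 97.3 and 76.0 in IL-10- Treg, against 17.2 to 46.4 FPM over all other labels with at least 50 cells. Il10, the cytokine gene in the label names, stood at 153 and 146 FPM in IL-10+ Treg and at 79.3 and 55.1 FPM in IL-10- Treg, and in both tissues it was higher in IL-10+ than in IL-10- Treg.

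In ATAC-seq a transposase cuts open chromatin, and the number of cut ends near a gene reads how accessible its promoter and nearby elements are, not how much of the gene is transcribed. Treg are CD4+ T cells that restrain immune responses, and those of the intestine include many that make the cytokine IL-10. The genes belong to no common pathway. Adora1 encodes the A1 adenosine receptor, which signals through inhibitory G proteins, and Gng4 encodes a gamma subunit of such heterotrimeric G proteins. Tff1 encodes a trefoil factor peptide secreted by mucosal epithelium, Dpt encodes dermatopontin, an extracellular matrix protein, and Mybph encodes myosin-binding protein H of muscle.

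A fragment was counted once if either end lay in the gene span or within 5 kb of it, and the count was divided by all fragments of that label and tissue to give FPM. The spans, on build GRCm38.p6, are chr1:164796663-164824274 for Dpt, chr1:134193418-134201237 for Mybph, chr1:134199215-134235457 for Adora1, chr13:13784059-13827895 for Gng4 and chr17:31161395-31165060 for Tff1. Mybph and Adora1 are neighbors whose spans overlap at their ends, and their windows share most fragments. In IL-10+ Treg 108 of the 113 cecum fragments and 111 of the 123 tumor fragments of Mybph also counted for Adora1, and in IL-10- Treg 37 of 43 and 184 of 216 did. These 2 genes are therefore close to 1 measurement.

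Among the members with an annotated start here, Gng4 alone has a large part of its change there, though not all of it. Its promoter sequence is therefore shown from RefSeq (GRCm38.p6, 250 bases before to 50 after each start). The outer start of Adora1 is shown beside it because it is rich in CpG and yet held next to no Treg fragments. All are printed 5′ to 3′ on the strand of the gene, and capitals mark matches to the motifs named after them.
Gng4, first start, chr13:13783809-13784108, plus strand: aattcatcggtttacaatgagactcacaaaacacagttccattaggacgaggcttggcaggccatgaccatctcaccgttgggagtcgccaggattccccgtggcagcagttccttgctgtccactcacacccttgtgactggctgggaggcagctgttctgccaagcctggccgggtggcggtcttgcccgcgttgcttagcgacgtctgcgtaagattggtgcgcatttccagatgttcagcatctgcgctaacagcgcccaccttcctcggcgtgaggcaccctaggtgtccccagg
Gng4, second start, chr13:13784057-13784356, plus strand: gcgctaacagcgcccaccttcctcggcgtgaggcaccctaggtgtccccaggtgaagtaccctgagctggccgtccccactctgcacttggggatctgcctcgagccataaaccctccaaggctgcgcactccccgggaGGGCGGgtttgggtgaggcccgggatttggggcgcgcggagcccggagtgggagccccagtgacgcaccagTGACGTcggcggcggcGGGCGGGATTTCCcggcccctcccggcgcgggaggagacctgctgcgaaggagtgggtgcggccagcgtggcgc
Adora1, outer start, chr1:134235408-134235707, minus strand: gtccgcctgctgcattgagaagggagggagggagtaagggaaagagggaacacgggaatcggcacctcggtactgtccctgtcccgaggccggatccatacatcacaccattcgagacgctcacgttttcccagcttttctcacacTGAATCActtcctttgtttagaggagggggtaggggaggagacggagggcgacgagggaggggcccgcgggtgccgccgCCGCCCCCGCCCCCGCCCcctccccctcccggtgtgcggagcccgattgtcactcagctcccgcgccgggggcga
These windows hold 17, 29 and 26 CpG sites, against a median of 7 over the 32851 promoters of the table. Both strands were searched for a TATA box (TATAAA), a cyclic AMP response element (TGACGTCA) and the core of it (TGACGT), an AP-1 site (TGANTCA), a GC box (GGGCGG), a RUNX site (TGTGGT), a forkhead site (TGTTTAC) and an NF-kB type site (GGGANTTCC). The first Gng4 window held none of them. The second held TGACGT at position 211 from its 5′ end, GGGCGG at positions 140 and 227, and GGGANTTCC at position 231, which overlaps the second GC box. TGACGT occurs in 7.51% of all promoters, GGGCGG in 35.7% and GGGANTTCC in 1.68%. The Adora1 window held 3 GC boxes and 1 TGANTCA, a motif of 7.81% of promoters. A match is a string of letters and was not read as a bound site.

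The first Gng4 promoter window held 7 cecum and 15 tumor fragments in IL-10+ Treg and 7 and 45 in IL-10- Treg. The second held 24 and 28 fragments in IL-10+ Treg (4.20 and 10.3 FPM) and 25 and 103 in IL-10- Treg (8.33 and 17.7 FPM). The promoter windows of Dpt, Mybph and Adora1 were close to empty in the same cells. That of Dpt held 0 fragments in all 4 Treg groups, that of Mybph held at most 2 in any of them, and both Adora1 windows held at most 1. Tff1 is named only.

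In the whole windows Mybph stood at 19.8 FPM in cecum and 45.1 FPM in tumor IL-10+ Treg, from 113 and 123 fragments, and at 14.3 and 37.2 FPM in IL-10- Treg, from 43 and 216 fragments. The log2 ratio of tumor over cecum was 1.19 (95% interval 0.81 to 1.57) and 1.38 (0.90 to 1.88). Adora1 stood at 20.1 and 42.9 FPM in IL-10+ Treg and at 13 and 35.3 FPM in IL-10- Treg, a log2 ratio of 1.09 (0.71 to 1.47) and 1.44 (0.94 to 1.98). The mean over cells of each cell's own FPM gave larger log2 ratios in IL-10- Treg, 2.09 for Mybph and 2.14 for Adora1. The tumor level was the higher one in both subsets, as the choice of the genes requires. All intervals are exact and cover counting error only, and with 1 library per tissue no difference between animals could be tested.

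Gng4 stood at 7.88 FPM in cecum and 20.2 FPM in tumor IL-10+ Treg, from 45 and 55 fragments, and at 20.7 and 44.3 FPM in IL-10- Treg, from 62 and 257 fragments. Its log2 ratio was 1.36 (0.76 to 1.96) and 1.10 (0.69 to 1.52). The cecum IL-10- Treg and the tumor IL-10+ Treg thus differed by less than counting error. In IL-10- Treg fragments shorter than the DNA of 1 nucleosome made up 27.4% of the Gng4 fragments in cecum and 47.1% in tumor, against 44.9% and 47.4% of all fragments of the label, and on these short fragments alone the log2 ratio was 1.80. The mean over cells gave 0.57 in IL-10- Treg.

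Tff1 stood at 11.7 FPM in cecum and 29.3 FPM in tumor IL-10+ Treg, from 67 and 80 fragments, and at 21.7 and 46.7 FPM in IL-10- Treg, from 65 and 271 fragments. Its log2 ratio was 1.32 (0.84 to 1.81) and 1.11 (0.71 to 1.52), and 0.52 and 0.50 with 50 kb on each side of the gene, which takes in its neighbors. Dpt, the member with the fewest fragments, stood at 3.85 and 13.9 FPM in IL-10+ Treg, from 22 and 38 fragments, and at 14 and 34.1 FPM in IL-10- Treg, from 42 and 198. Its log2 ratio was 1.85 (1.06 to 2.68) and 1.28 (0.80 to 1.80). For Dpt in IL-10- Treg the mean over cells gave a larger ratio, above that interval. Dpt, Tff1 and Gng4 were lower in IL-10+ than in IL-10- Treg in each tissue, whereas Mybph and Adora1 were higher in IL-10+ Treg, with intervals that overlapped.

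**Figure D1:**
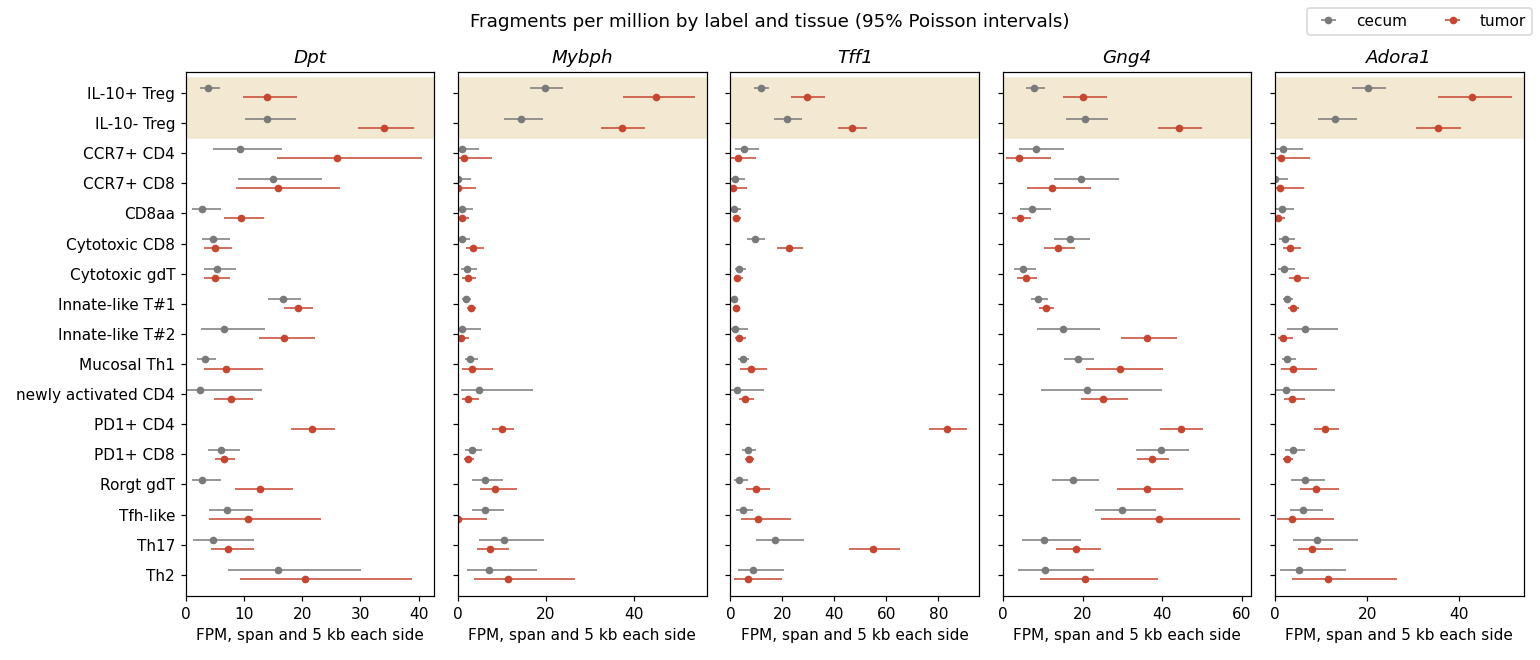
FPM in the span and 5 kb on each side of each gene (x axis) for every label (rows) in cecum (grey) and tumor (red), with 95% Poisson intervals. Groups with under 50 cells are left out, which removes the cecum PD1+ CD4 cells. The shaded rows are the Treg labels, where Mybph and Adora1 reach 45.1 and 42.9 FPM while no other label passes 11.4 FPM in either gene.

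The fragments came from many cells. In tumor IL-10- Treg the Dpt fragments came from 146 of 737 cells with at most 6 from 1 cell, those of Gng4 from 165 cells with at most 7, and those of Tff1 from 189 cells with at most 5. In tumor IL-10+ Treg the number of cells with a fragment ran from 31 for Dpt to 81 for Mybph, out of 387.

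The choice of genes had a narrow edge. Over the 14406 genes with at least 50 fragments in both Treg labels together in each library, and with 1 FPM added to each level, the last gene inside was Adora1, at log2 ratios of 1.05 and 1.38 in IL-10+ and IL-10- Treg. The first gene outside was Rab7b, a small GTPase of late endosomes, at 1.07 and 1.05. Next came Adora2b, another adenosine receptor, at 1.23 and 0.99, Arntl2, a clock transcription factor, at 0.98 and 1.29, the kinase gene Nuak1 at 0.93 and 1.0, and the serpin gene Serpina3g at 0.97 and 0.91. Of all genes with at least 50 fragments in a label, 0.35% were at or past 2-fold higher in tumor in IL-10+ Treg and 0.637% in IL-10- Treg. All 5 members are inside these shares because they were chosen so.

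The windows were then cut into 500-bp tiles. The 3 tiles with the largest difference shared by both Treg labels made up 2.79% (Gng4) to 11.0% (Tff1) of a window's length and carried 39.2% to 83.4% of the difference in FPM. They were chosen for that difference, and they also held 53.2% to 88.1% of the cecum fragments of a window. For Mybph and Adora1 in IL-10- Treg they held 60.5% and 69.2% of the cecum fragments and carried less of the difference, 39.7% and 39.2%, and the rest of the window was at a log2 ratio of 1.78 (1.04 to 2.61) and 2.14 (1.27 to 3.13), against 1.03 (0.40 to 1.71) and 0.98 (0.36 to 1.65) in the tiles. No tile with at least 20 Treg fragments was lower in tumor in both labels, for any of the genes. The windows were chosen for being higher in both labels, so this is no independent support. In 1 label alone some tiles were lower. In IL-10+ Treg chr1:164816001-164816500 of Dpt held 4 cecum and 0 tumor fragments, and chr17:31162001-31162500 of Tff1 was at -0.03 (-1.57 to 1.35). In IL-10- Treg chr1:134202001-134202500, in the Mybph and Adora1 windows, was at -1.17 (-3.02 to 0.62), from 7 and 6 fragments.

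The leading Gng4 tiles sat at the start of the gene. The leading tile, chr13:13784001-13784500, contains both annotated starts (13784059 and 13784307) and stood at 4.38 FPM in cecum and 11.7 FPM in tumor IL-10+ Treg, and at 9.33 and 19.6 FPM in IL-10- Treg. The tile just upstream held 3 cecum and 16 tumor fragments in IL-10+ Treg and 8 and 33 in IL-10- Treg. The third tile, 1.19 kb into the gene, held 3 and 4, and 2 and 22. Together these tiles carried 81.0% of the difference of the window in IL-10+ Treg and 60.7% in IL-10- Treg.

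The Tff1 difference sat mostly in a pair of tiles, within the short gene and at the upper-coordinate end of its span. The strand and start of Tff1 were not annotated here, so whether that end is its start is not stated. The tile 1.36 kb into the span, chr17:31162501-31163000, stood at 4.38 FPM in cecum and 13.6 FPM in tumor IL-10+ Treg, from 25 and 37 fragments, and at 8.33 and 21.7 FPM in IL-10- Treg, from 25 and 126. The other tile, chr17:31165001-31165500, covers the upper end of the span and stood at 3.85 and 8.06 FPM, from 22 fragments in each tissue, and at 7.66 and 14.8 FPM, from 23 and 86. With the tile after the first they carried 78.2% of the difference in IL-10+ Treg and 83.4% in IL-10- Treg. The rest of the window was at a log2 ratio of 1.07 (0.10 to 2.04) and 0.79 (-0.01 to 1.67), against 1.42 and 1.20 in the tiles.

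The leading Dpt tiles lay far from the start of the gene, in the part of the span 18.6 to 20.6 kb from it. The tile chr1:164815001-164815500 held 8 cecum and 18 tumor fragments in IL-10+ Treg (1.40 and 6.60 FPM) and 19 and 58 in IL-10- Treg (6.33 and 9.99 FPM). The next one, chr1:164815501-164816000, held 13 in each tissue in IL-10+ Treg (2.28 and 4.77 FPM) and 26 and 80 in IL-10- Treg (8.66 and 13.8 FPM). The third, chr1:164817001-164817500, held 5 and 29 in IL-10- Treg. In IL-10+ Treg it held only 3 and 2, a log2 ratio of 0.48 (-3.10 to 3.61). The 3 leading tiles held 88.1% of the cecum fragments of IL-10- Treg and 65.7% of the tumor fragments, and accounted for 10.1 of the 20.1 FPM by which the tissues differed there. The rest of the window held 5 cecum and 68 tumor fragments in IL-10- Treg, a log2 ratio of 2.81 (1.52 to 4.48). In IL-10+ Treg the leading tiles carried 56.0% of the difference. There the rest of the window held 4 and 14 fragments, a log2 ratio of 2.87 (1.20 to 4.93). Among the other tiles chr1:164816501-164817000 held 2 and 30 fragments in IL-10- Treg, some of which may also end in a leading tile, and 1 and 1 in IL-10+ Treg. The tile before it held 2 and 20 in IL-10- Treg and 4 and 0 in IL-10+ Treg. In tumor IL-10- Treg fragments were thus spread over more of this stretch than in cecum. The share in the leading tiles was lower in tumor in IL-10+ Treg too, at 63.2% against 81.8% in cecum.

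Mybph and Adora1 had the same leading tile, which lay inside Mybph. It was chr1:134196501-134197000, 3.33 kb into Mybph and 38.7 kb from the start of Adora1, which runs on the minus strand from position 134235457. This tile stood at 7.36 FPM in cecum and 14.7 FPM in tumor IL-10+ Treg, from 42 and 40 fragments, and at 6.0 and 9.13 FPM in IL-10- Treg, from 18 and 53. The IL-10- interval of its log2 ratio, -0.19 to 1.47, included 0. Counted from fragments shorter than the DNA of 1 nucleosome alone, the same tile held 2 and 31 fragments in IL-10- Treg, a log2 ratio of 2.92 (0.95 to 6.03), against 0.61 from all fragments. The tile at chr1:134195501-134196000 stood at 6.13 and 9.90 FPM in IL-10+ Treg and at 2.33 and 4.82 FPM in IL-10- Treg.

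A further tile, chr1:134201001-134201500, lay across the end of the Mybph span and within that of Adora1. Its values rest on few cecum fragments. In IL-10- Treg it held 2 cecum and 45 tumor fragments, a log2 ratio of 3.54 (1.60 to 6.63), and in IL-10+ Treg 5 and 7, a log2 ratio of 1.55 (-0.32 to 3.55). It was picked out after its values were seen, the intervals overlap, and the difference between the subsets was not tested. The adjacent tile chr1:134201501-134202000, the third named tile of Adora1, held 5 and 8 in IL-10+ Treg and 3 and 23 in IL-10- Treg. The 3 named tiles carried 56.8% of the Mybph difference in IL-10+ Treg and 39.7% in IL-10- Treg. Of Adora1 alone, without the part of its window that Mybph shares, only 7 cecum and 6 tumor fragments remained in IL-10+ Treg, and 2 and 21 in IL-10- Treg.

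**Figure D2:**
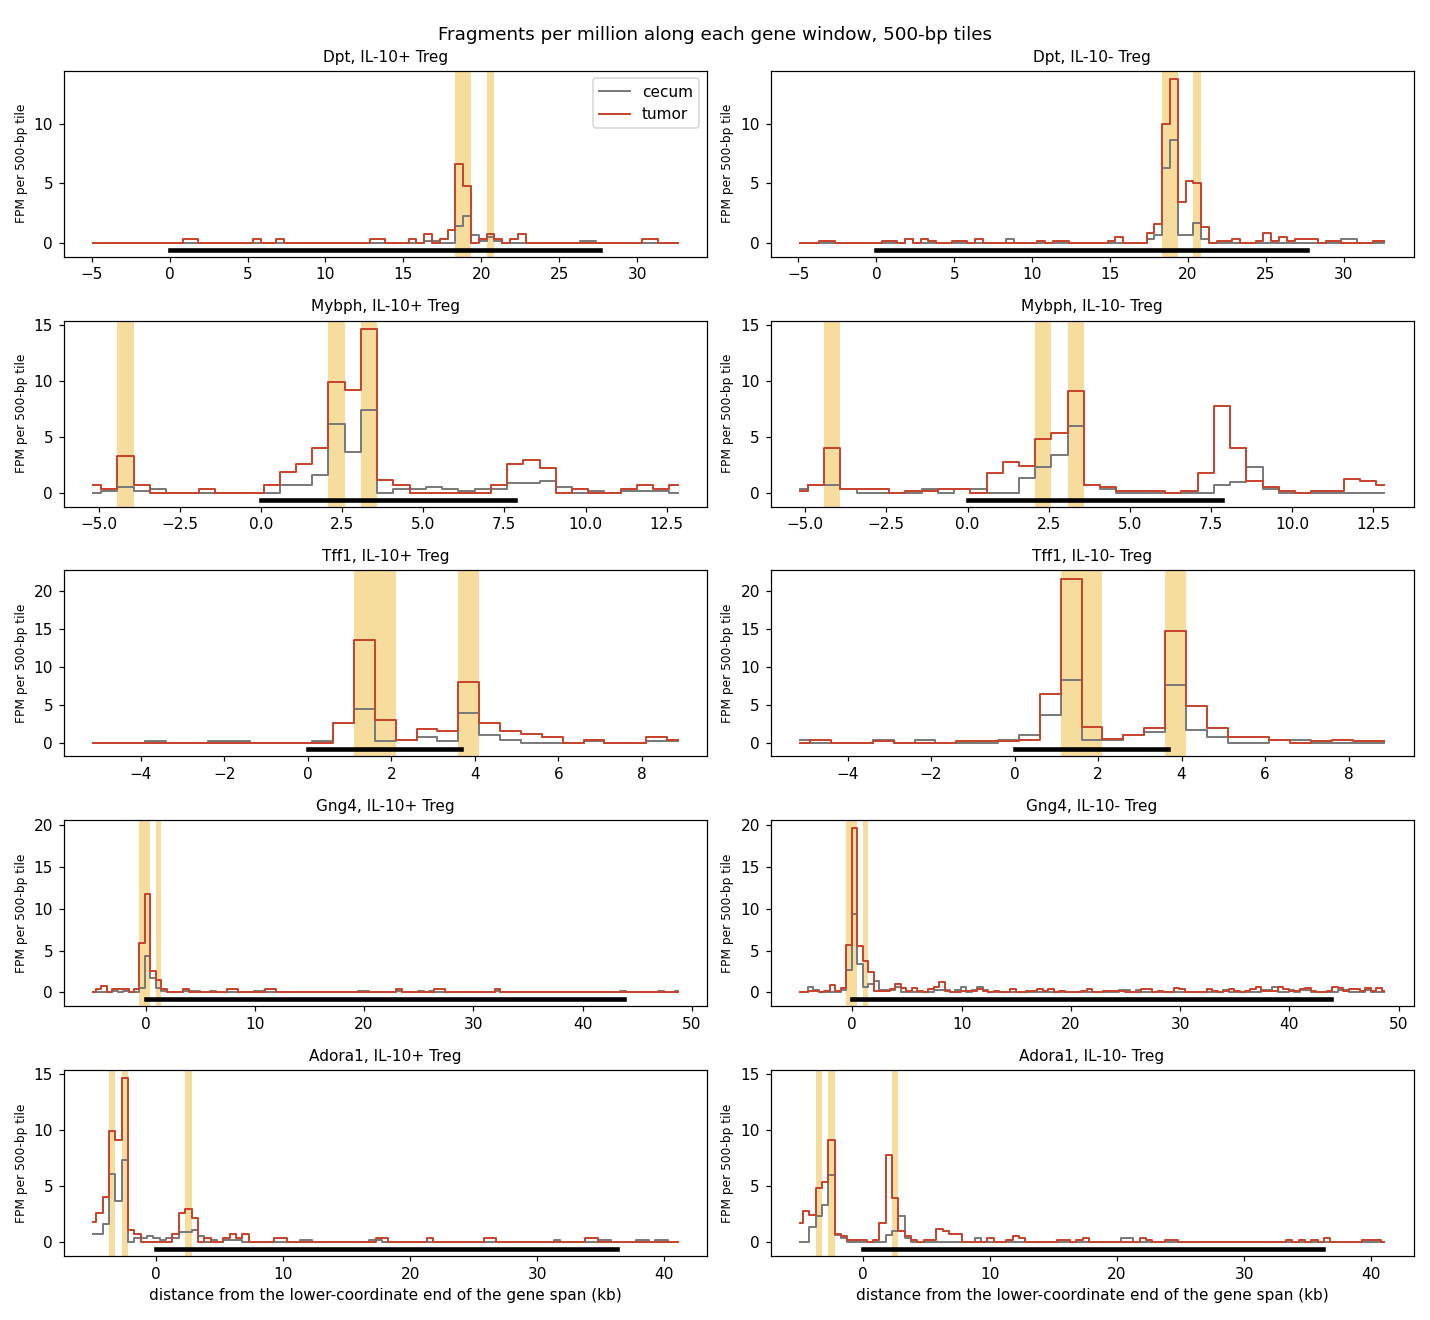
FPM in each 500-bp tile (y axis) against distance in kb from the lower-coordinate end of the gene span (x axis), for IL-10+ Treg (left) and IL-10- Treg (right) in cecum (grey) and tumor (red). The black bar is the gene span and yellow marks the 3 named tiles, which sit at the start for Gng4, 18.6 to 20.6 kb into the span for Dpt, and below the Adora1 span for the leading Adora1 tiles.

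Neighboring genes within 100 kb were measured in the same way. Chil1, which encodes a chitinase-like protein and whose window overlaps that of Mybph, stood at 2.10 FPM in cecum and 8.80 FPM in tumor IL-10+ Treg, from 12 and 24 fragments, and at 2.33 and 9.99 FPM in IL-10- Treg, from 7 and 58. The second tile of Mybph, chr1:134189001-134189500, lies within Chil1 and held 3 and 9, and 2 and 23 of them. Farther out at this locus Chit1 was at log2 ratios of 0.02 and 0.20 and Ppfia4 at 0.47 and -0.18, all with intervals that included 0. Beside Tff1, Tff2 was at 1.24 (0.51 to 1.97) in IL-10+ Treg and 0.64 (0.14 to 1.17) in IL-10- Treg, and Tmprss3, a serine protease gene on the other side, was at 0.43 (0.14 to 0.72) and 0.49 (0.20 to 0.78). Tff3 was at 1.07 (0.10 to 2.04) and 0.01 (-0.80 to 0.87). Beyond these, Rsph1 was at -0.22 and 0.31, Abcg1 was at -0.01 and 0.05 and Ubash3a at 0.06 and -0.05. Lyst, whose window overlaps that of Gng4, was at 0.07 and 0.17. Dpt had no protein-coding neighbor within 100 kb.

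**Figure D3:**
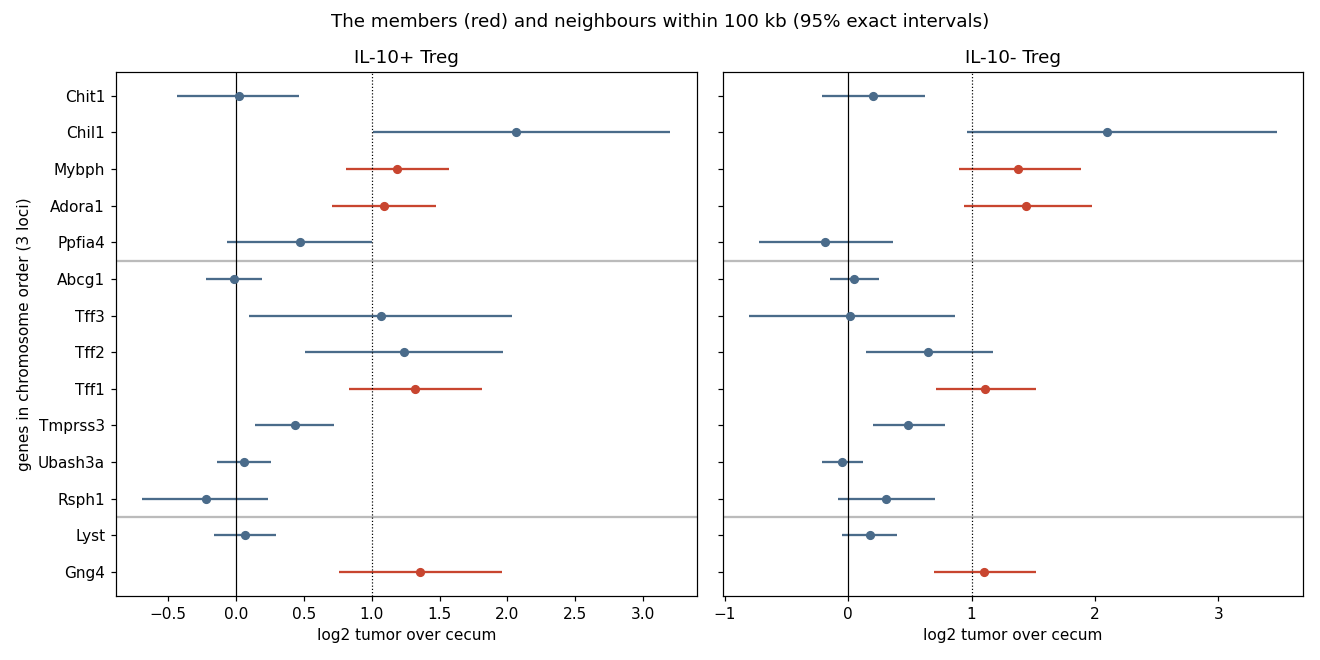
Log2 ratio of tumor over cecum (x axis) for Mybph, Adora1, Tff1 and Gng4 (red) and their neighbors within 100 kb (blue), in chromosome order from top to bottom within each locus, with 95% exact intervals. The dotted line marks 2-fold. Myog, with few fragments, is left out, and Dpt has no neighbor, while Chil1 lies at 2.07 in IL-10+ Treg and 2.10 in IL-10- Treg.

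The labels without a Treg name were not used in choosing the genes, although their cells share the 2 libraries. Over 14 such labels with at least 50 cells in both tissues, 41 pairs of gene and label held at least 20 fragments, of which 12 were at or past 2-fold higher in tumor and 0 at or past 2-fold lower. Over all genes 1.69% of such pairs were at or past 2-fold higher and 1.14% lower, with the same minimum and no pseudocount. That share was not matched on depth, and pairs with few fragments reach 2-fold by counting error more often. Several of the 12 hold few, such as Rorgt gdT cells with 6 and 27 for Dpt and 7 and 21 for Tff1. The 2 shares are therefore not a like comparison. The pairs are not independent, since Mybph and Adora1 share fragments and some pairs, such as Dpt in newly activated CD4 cells with 1 and 23, passed the minimum through the tumor count. Without cells above 3 times the median depth 11 of 34 pairs were at or past 2-fold higher and 2 lower. No share over all genes is given for that setting. Which labels followed differed by gene.

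Among the labelled cells Mybph and Adora1 had their highest levels in Treg. In the tumor no label without a Treg name passed 11.4 FPM for either gene, the median of these labels being 2.34 FPM for Mybph and 3.67 FPM for Adora1. The 2 highest tumor labels were IL-10+ and IL-10- Treg, whose intervals overlapped each other and those of no other label. In the cecum Treg also led the labels, but the Mybph interval of IL-10+ Treg overlapped those of Th17, Th2 and newly activated CD4 cells, and the Adora1 interval that of Th17 cells. Cecum barcodes without a label and with at least 100 but under 1000 fragments stood above both cecum Treg labels, at 23.7 FPM (18.0 to 30.6) for Mybph, an interval that overlaps both of theirs, and 38.8 FPM (31.4 to 47.4) for Adora1, one that overlaps neither. Mybph was measured with at least 20 fragments in 4 other labels, at log2 ratios from -0.51 in Th17 to 0.73 in Innate-like T#1, and Adora1 in 5, from -0.57 in PD1+ CD8 to 1.26 in Cytotoxic gdT cells. Every one of these intervals included 0. Cytotoxic CD8 cells, below that minimum, held 3 and 13 Mybph fragments. The 3 leading tiles of both genes held under 20 fragments in each of the 14 labels.

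Tff1 was higher in tumor in 3 further labels with intervals above 0. Th17 cells, CD4+ T cells defined by IL-17, stood at 17.2 FPM in cecum and 54.7 FPM in tumor, from 15 and 128 fragments, a log2 ratio of 1.67 (0.89 to 2.55). Cytotoxic CD8 cells stood at 9.44 and 22.6 FPM, from 32 and 85 fragments, a log2 ratio of 1.26 (0.66 to 1.90), and Rorgt gdT cells at 3.24 and 9.88 FPM, from 7 and 21, a log2 ratio of 1.61 (0.32 to 3.09). PD1+ CD8 cells stood at 6.66 and 7.21 FPM, a log2 ratio of 0.11 (-0.58 to 0.85). The 3 leading Tff1 tiles behaved likewise, at log2 ratios of 1.94 (0.96 to 3.12) in Th17 and -0.31 (-1.15 to 0.59) in PD1+ CD8 cells, and at 7.97 and 16.0 FPM in Cytotoxic CD8 cells. The highest tumor level of Tff1 was not in Treg but in PD1+ CD4 cells, at 83.5 FPM (76.4 to 91.1), above the interval of every other label. Their cecum counterpart has 14 cells and 4 Tff1 fragments, so no ratio was drawn from it.

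Gng4 was higher in tumor in Innate-like T#2 cells, at 15.1 and 36.1 FPM from 16 and 109 fragments, a log2 ratio of 1.26 (0.50 to 2.12). Rorgt gdT cells stood at 17.6 and 36.2 FPM, from 38 and 77, a log2 ratio of 1.04 (0.46 to 1.64), and Mucosal Th1 cells at 18.8 and 29.3 FPM, a log2 ratio of 0.64 (0.06 to 1.2). Without the top cell of each tissue, an alternative chosen after seeing the data, the ratio in Mucosal Th1 cells was 0.53 (-0.08 to 1.11), an interval that includes 0. The PD1+ CD8 cells held the highest Gng4 level of the cecum, 39.7 FPM, and were at 37.5 FPM in tumor, from 143 and 343 fragments, a log2 ratio of -0.08 (-0.37 to 0.21). Of the 12 labels with at least 20 Gng4 fragments 4 were lower in tumor, down to -0.78 (-1.90 to 0.33) in CD8aa cells. In the tumor the order ran from PD1+ CD4 at 44.6 FPM through IL-10- Treg and Tfh-like cells, and the intervals of 6 labels overlapped that of the first.

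In the 3 leading Gng4 tiles the intervals of Innate-like T#1, Innate-like T#2 and Rorgt gdT cells lay above 0, and that of Mucosal Th1 cells, at 0.32 (-0.50 to 1.08), included 0. Innate-like T#1 cells had 23 cecum and 87 tumor fragments there, at 2.85 and 6.96 FPM, a log2 ratio of 1.29 (0.61 to 2.02), against 0.30 (-0.12 to 0.73) in the window. In the window 17 of their 72 cecum fragments came from 1 cell, and without the top cell of each tissue the window was at 0.65 (0.18 to 1.13). PD1+ CD8 cells were at 23.9 and 23.4 FPM in these tiles, a log2 ratio of -0.03 (-0.40 to 0.35), and CCR7+ CD8 cells held 17 and 5 fragments, a log2 ratio of -1.25 (-3.04 to 0.25).

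Dpt was higher in tumor in 4 labels with intervals above 0. Rorgt gdT cells stood at 2.78 and 12.7 FPM, from 6 and 27 fragments, a log2 ratio of 2.19 (0.89 to 3.76), and CD8aa cells at 2.78 and 9.54 FPM, from 6 and 33, a log2 ratio of 1.78 (0.50 to 3.32). CCR7+ CD4 cells were at 9.22 and 26.0 FPM, from 11 and 19, and Innate-like T#2 cells at 6.60 and 16.9 FPM, from 7 and 51. Innate-like T#1 cells, the label with the most Dpt fragments, stood at 16.7 and 19.2 FPM, from 135 and 240, a log2 ratio of 0.20 (-0.11 to 0.51). In the cecum these cells had the highest Dpt level, with an interval that overlapped those of Th2, CCR7+ CD8, IL-10- Treg and CCR7+ CD4 cells, and in the tumor IL-10- Treg did, with an interval that overlapped those of CCR7+ CD4 and Th2 cells. In the leading Dpt tiles 10 labels held at least 20 fragments, several of them mainly through the tumor count, such as CD8aa cells with 4 and 21. Their ratios ran from 0.31 in CCR7+ CD8 to 1.90 (0.54 to 3.42) in CCR7+ CD4 cells, 3 of them with an interval above 0.

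**Figure D4:**
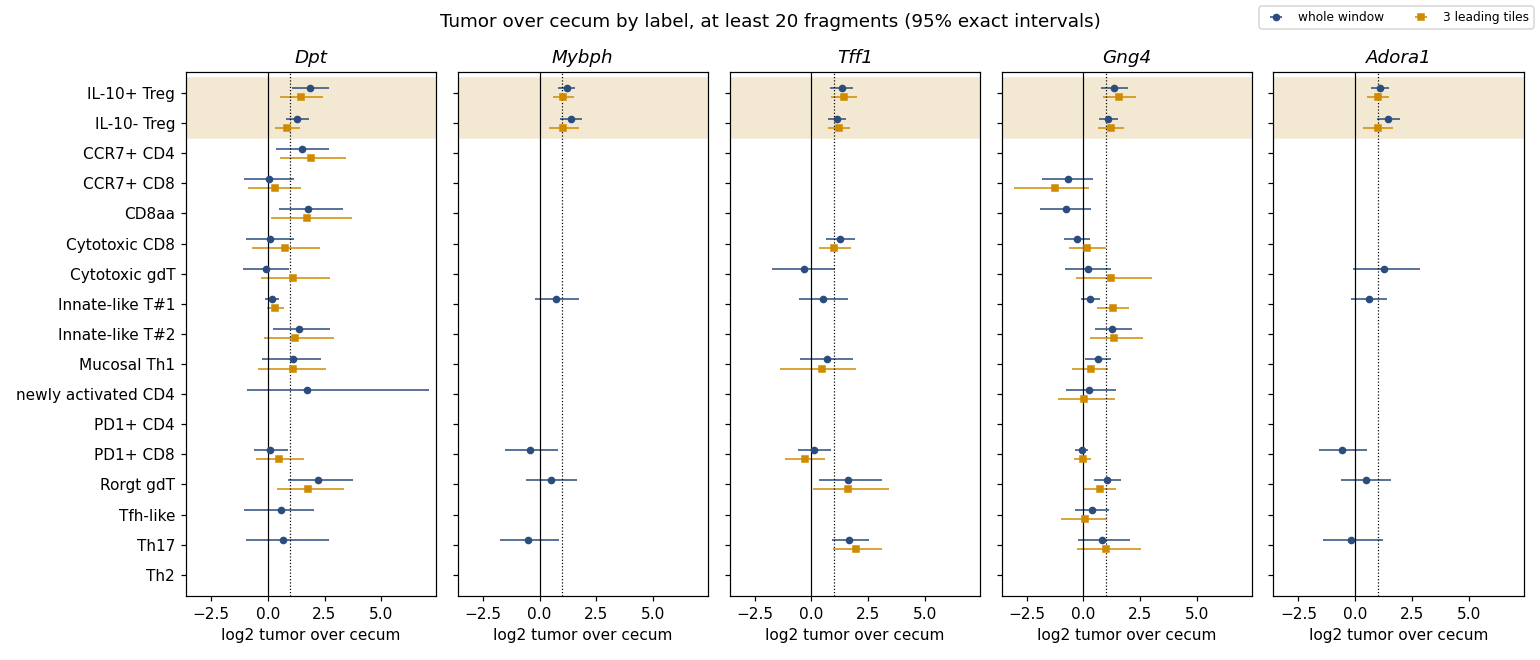
Log2 ratio of tumor over cecum (x axis) by label (rows), for the whole window (blue circles) and the 3 leading tiles counted together (orange squares), with 95% exact intervals; pairs with under 20 fragments and the PD1+ CD4 label are left out. The dotted line marks 2-fold. Tff1 lies at 1.67 in Th17 and 1.26 in Cytotoxic CD8 cells, and Gng4 lies at -0.08 in PD1+ CD8 cells.

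Read against all genes with at least 50 fragments in a label, and with 1 FPM added, the share at or past 2-fold higher in tumor differed between labels. In Th17 cells 0.742% of genes did, and Tff1 was the 1 of 2 measurable members that did. In Cytotoxic CD8 cells 0.279% did, and again Tff1 was 1 of 2. In Innate-like T#2 cells 0.526% did, as did both measurable members, Dpt and Gng4, and in Rorgt gdT cells 0.48% did, as did Gng4, the sole measurable member. In Mucosal Th1 cells 0.251% did and Gng4 did not. In Innate-like T#1 and PD1+ CD8 cells 0.099% and 0.128% did, and none of the 4 and 3 measurable members. In newly activated CD4 and Tfh-like cells 1.76% and 0.189% did, and Gng4, the sole measurable member in each, did not. The minimum adds both tissues, and members past 2-fold met it mainly through the tumor count. Innate-like T#2 cells held 7 and 51 Dpt and 16 and 109 Gng4 fragments, and Th17 cells 15 and 128 of Tff1. Being measurable and being higher in tumor are thus linked, so these counts are a description.

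Families of the members were read with 1 FPM added for the counts of genes at 2-fold and the medians, and without it for single ratios. Each family includes its member, which was chosen for its higher level in these same cells. The hit of that member was thus fixed in advance, and it also enters the medians. Over all genes 0.35% passed 2-fold in IL-10+ Treg and 0.637% in IL-10- Treg. Without Adora1, 1 of 9 adenosine genes passed in IL-10+ Treg and 0 of 9 in IL-10- Treg. Of 10 genes of adenosine receptors and metabolism, all measurable, 2 reached 2-fold in IL-10+ Treg, Adora1 and Adora2b, and 1 in IL-10- Treg, where Adora2b was at 0.99 (1.06 without the added 1 FPM), with medians of 0.11 and 0.14 against -0.01 over all genes in each subset. Adora2a, the receptor best known on T cells, was at 127 and 115 FPM in IL-10+ Treg and at 151 and 135 FPM in IL-10- Treg, and Nt5e (CD73), which makes adenosine, was at 153 and 137 FPM and at 117 and 110 FPM. Entpd1 (CD39), which acts upstream of CD73, was at a log2 ratio of 0.13 (-0.01 to 0.28) and 0.26 (0.11 to 0.41). Members of the family also lay lower in tumor with an interval under 0: Ada, which encodes the deaminase that breaks adenosine down, was at -0.77 (-1.50 to -0.09) in IL-10+ Treg, and the receptor gene Adora3 was at -0.47 (-0.89 to -0.05) in IL-10- Treg. Of 12 G protein gamma subunits 9 were measurable and Gng4 was the 1 at 2-fold in either subset, with medians of 0.19 and 0.05.

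Of the 3 trefoil factors 2 were measurable in IL-10+ Treg, Tff1 and Tff2, both past 2-fold with a median of 1.18. In IL-10- Treg all 3 were measurable and Tff1 alone passed, with a median of 0.61. Without Tff1, 1 of 1 measurable trefoil factor passed in IL-10+ Treg and 0 of 2 in IL-10- Treg. Of 5 myosin-binding proteins Mybph alone passed in both subsets, with medians of 0.02 and 0.15. Of 9 genes listed for the matrix, Dpt itself and the cytokine gene Tgfb1 included, 4 were measurable in IL-10+ Treg and 5 in IL-10- Treg, and Dpt alone passed, with medians of 0.20 and 0.40.

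Across the 33 groups of label and tissue with at least 50 cells, the levels of Mybph and Adora1 had a Pearson r of 0.91 on the log2(FPM + 1) scale, as the shared fragments require. The other pairs ran from 0.13 for Dpt and Mybph to 0.70 for Tff1 and Adora1. Genes elsewhere with the pattern most like a member were Fabp12, Ereg and Grik1 for Mybph (r of 0.89, 0.85 and 0.84), and Serpina3a, Ereg and Kcnk10 for Adora1 (0.86, 0.84 and 0.84). For Tff1 they were Il1r2, Eif3h and Slc15a3 (0.83, 0.82 and 0.82), for Gng4 Pgbd1, Pank1 and Pdcd1 (0.82, 0.77 and 0.75), and for Dpt Pstpip2 and Ecm1 (0.77 and 0.75). These groups share 2 libraries, so r is a description. Genes alike over labels varied in their change between tissues. Pdcd1, which encodes PD-1, was lower in tumor, at 144 and 123 FPM in cecum and tumor IL-10+ Treg and at 195 and 158 FPM in IL-10- Treg. Fabp12, which encodes a fatty acid-binding protein, was higher in tumor, at 45.5 and 79.9 FPM and at 34.7 and 48.6 FPM. Serpina3a, Il1r2, Slc15a3, Pgbd1 and Ecm1 were also higher in tumor in both subsets. Eif3h was lower in both, and the rest of those named were mixed.

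Marker lists were read in the same Treg cells. The summed level of the 5 T cell markers was lower in tumor in both subsets, at -0.11 (-0.20 to -0.03) in IL-10+ Treg and -0.13 (-0.21 to -0.04) in IL-10- Treg, with 0 and 1 of 5 higher in tumor. The 6 Treg markers were at 0.03 (-0.04 to 0.10) in IL-10+ Treg and at -0.13 (-0.19 to -0.07) in IL-10- Treg, with 4 and 0 of 6 higher in tumor. The 10 epithelial markers summed to 116 and 118 FPM in cecum and tumor IL-10+ Treg and to 145 and 163 FPM in IL-10- Treg, a log2 ratio of 0.03 (-0.17 to 0.22) and 0.17 (0.00 to 0.34), with 6 of 10 higher in tumor in each subset, and Krt19 was at 0 in cecum IL-10+ Treg. The 8 fibroblast markers were at -0.03 (-0.29 to 0.24) and -0.11 (-0.33 to 0.11), with 3 and 4 of 8 higher in tumor, and Lum was at 0 in tumor IL-10+ Treg. The 6 myeloid markers were at 0.24 (0.00 to 0.48) and 0.25 (0.05 to 0.46), with 4 and 5 of 6 higher. Of these Itgam alone had an interval above 0, at 0.83 in IL-10+ Treg and 0.51 in IL-10- Treg. The 6 endothelial markers were at 0.15, with an interval that included 0, and 0.41 (0.26 to 0.57), with 5 of 6 higher in each. Pecam1 held 810 of their 1081 cecum fragments in IL-10+ Treg and 314 of 474 in IL-10- Treg. The 6 B cell markers were at 0.02 (-0.13 to 0.17) and -0.01 (-0.15 to 0.13), with 4 and 2 of 6 higher. The part of these lists in the difference at the members was not tested. Barcodes without a label and with under 100 fragments had Tff1 at 5.95 FPM in cecum and 16.9 FPM in tumor, Gng4 at 24.3 and 24.2 FPM, Dpt at 14.2 and 17.1 FPM, Mybph at 8.80 and 15.1 FPM and Adora1 at 16.8 and 26.0 FPM. The Adora1 values are above the level of every label without a Treg name in the same tissue, and in cecum above that of IL-10- Treg. The Mybph value in tumor is above the highest of any label without a Treg name, 11.4 FPM. Those of Tff1, Mybph and Adora1 were higher in tumor with intervals of the ratio above 0. Barcodes without a label and with at least 100 but under 1000 fragments went the other way, with all 5 ratios under 0. Mybph, at 10.5 FPM in tumor, had a log2 ratio of -1.17 (-1.84 to -0.52). Adora1, at 23.7 FPM in tumor, had a log2 ratio of -0.71 (-1.17 to -0.25), and Gng4 stood at 22.9 and 14.5 FPM, a log2 ratio of -0.66 (-1.26 to -0.06). Tff1 and Dpt were at -0.26 and -0.07, with intervals that include 0.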

How the data were processed

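Sorted T cells were profiled with a 10x multiome assay, with 1 ATAC library per tissue. Alignment to mm10 was done by the authors with Cell Ranger ARC 2.0.0, as read from the headers. The deposited column of counts gives read pairs per unique fragment, as raw counts without normalization. Each fragment was counted once here, so duplicates did not weigh. The libraries held 66466111 fragments from the cecum and 96747563 from the tumor, of which 66.2% and 64.3% were in labelled cells. Labels, given by the authors from RNA clusters, were deposited per cell. Doublets were not called. No RNA was analysed here.

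Autosomal, X and Y fragments were summed per label and scaled to FPM. Gene spans and promoters came from RefSeq tables of GRCm38.p6, the build of mm10, without exons, so exon or intron is not stated. Intervals are at 95%, exact conditional for ratios and Poisson for levels. No ratio printed for a single gene or tile comes from a count of 0. In counts of the members' pairs a 0 was set to 3 fragments, or the pair was left out. Named tiles were the 3 per gene with the largest value of the smaller of the Treg labels' differences. Alternatives changed the window, tile size, cell and fragment filters, scaling and averaging. Shares over all genes used a pseudocount of 1 FPM and at least 50 fragments. The members, lists, motifs and rules (the 5 next genes, neighbors, families and the 3 genes of most similar pattern) were chosen with earlier results of these data known. For Dpt 1 gene of similar pattern is not reported here. Counting and ratios were tested on simulated data. Python 3.11.15 with numpy 2.4.6, scipy 1.17.1 and numba 0.67.0 was used.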

Additional observations from a re-analysis of the deposited data

Results flagged for a closer look

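Barcodes without a label but with at least 1000 fragments lay outside the comparisons (1592 cecum and 2044 tumor barcodes). Of the members 4 were higher in tumor there with an interval above 0. Intervals are narrow at this depth. The share of all genes with such an interval is not given, so the count describes no trait of the members. Tff1 stood at 4.90 FPM in cecum and 26.7 FPM in tumor, from 79 and 721 fragments, a log2 ratio of 2.45 (2.11 to 2.80). Dpt was at 10.1 and 19 FPM, a log2 ratio of 0.91 (0.65 to 1.17), Gng4 at 19.9 and 31.8 FPM, a log2 ratio of 0.68 (0.49 to 0.87), and Mybph at 6.70 and 10.3 FPM, a log2 ratio of 0.62 (0.30 to 0.96). In the same barcodes the 10 epithelial markers summed to 141 and 182 FPM, with 9 of 10 higher in tumor, and the 6 Treg markers to 689 and 769 FPM, with 4 of 6 higher. Both sums lie within the range of the labels without a Treg name and with at least 50 cells. That range was 88.6 to 208 FPM in cecum and 107 to 215 FPM in tumor for the epithelial markers. For the Treg markers it was 632 to 876 FPM and 567 to 862 FPM. Of the Treg markers Foxp3, the defining factor of Treg, was lower in tumor, at 39.9 and 30.2 FPM, a log2 ratio of -0.40 (-0.55 to -0.25), as was Ctla4, at -0.09 (-0.20 to 0.01). The T cell markers were at -0.08 (-0.11 to -0.04) and the endothelial markers at 0.29 (0.22 to 0.35). What these barcodes are was not tested.

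Adora1 was lower in tumor in Innate-like T#2 cells, opposite to both Treg labels, at 6.60 and 1.66 FPM from 7 and 5 fragments, a log2 ratio of -1.99 (-3.99 to -0.12). The difference from Treg was not tested, and it rests on 12 fragments. Of the 7 in cecum 5 came from 1 cell, and without the top cell of each tissue, an alternative chosen after seeing the data, 2 and 4 fragments gave -0.53 (-3.33 to 2.94).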

How the results depend on the processing

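The Treg ratios were recomputed under each alternative that gave a value, 100 values in all, and all 100 were higher in tumor. The genes were chosen for this direction in the same cells, so that count is no independent support. Of the 100 values 85 lay within the interval of the value as reported. The mean over cells gave 1.88 for Dpt and 0.57 for Gng4 in IL-10- Treg, 1.66 and 2.09 for Mybph and 1.64 and 2.14 for Adora1 in IL-10+ and IL-10- Treg. Fragments shorter than the DNA of 1 nucleosome gave 1.95, 1.80 and 2.02 for Mybph, Gng4 and Adora1 in IL-10- Treg, and 2.92 for the leading tile that Mybph and Adora1 share, against 0.61 as reported. Without the shared part of the windows Mybph was at 2.55 in IL-10+ Treg and Adora1 at 2.44 in IL-10- Treg. The span alone gave 2.06 for Adora1 in IL-10- Treg. Tff1 was at 0.77 in IL-10+ Treg within 1 kb of either gene end, and at 0.52 and 0.50 with 50 kb on each side, a window that holds its neighbors. The cause was not tested.

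In labels without a Treg name, 12 of 41 pairs of gene and label were at or past 2-fold higher, 6 of 14 within 1 kb of the ends and 7 of 64 with 50 kb. Without the cell with the most fragments in each tissue, an alternative chosen after seeing the data, 12 of 37 were. The share over all genes, 1.69%, belongs to the first of these counts alone and is not matched to it on depth. None is given for the other settings. Leading tiles were higher in tumor in 12 of 15 pairs, 4 of them with an interval above 0, and in 21 of 25 pairs with 1000-bp tiles, 8 of them with an interval above 0. The share over tiles of all genes was not computed. The shares of all genes at 2-fold, 0.35% and 0.637%, became 0.0839% and 0.134% with a pseudocount of 5 FPM, 0.0265% and 0.152% with at least 200 fragments, 1.29% and 1.54% with no minimum, and 2.36% and 3.35% at 1.5-fold. No paired analysis was possible because each tissue has 1 library, and no replicate could be left out.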
